A study of Caenorhabditis elegans with 26 samples.

Results

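The 10 genes described here make or carry the small-molecule transmitters of the nematode Caenorhabditis elegans: cha-1, unc-17, cho-1, unc-25, unc-47, eat-4, cat-2, tph-1, bas-1 and tdc-1. They were taken by WormBase name as the standard marker genes of cholinergic, GABA, glutamate and amine neurons, and all 10 were found among the 20182 genes of the deposited count table. Whole worms of the wild-type strain N2 were sampled through larval development in a pair of time courses, and total RNA depleted of ribosomal RNA was sequenced. Course B was fed NA22 bacteria on peptone rich NGM, and its 10 libraries were titled 18 to 36 h in steps of 2 h. Course A was fed OP50 bacteria on NGM, and its 16 libraries were titled 21 to 36 h in steps of 1 h. In both courses the animals came from eggs that hatched overnight after an egg preparation and were plated as first-stage larvae. Per the labels, course A grew slowly and was harvested 1 h later than its titles say. Times are those of the titles throughout. Every time point has a single library per course, so each value below is 1 library of pooled larvae.

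A neuron is named cholinergic, GABAergic, glutamatergic or aminergic by the enzyme that makes its transmitter and the transporter that loads it into synaptic vesicles. In C. elegans these genes are switched on as each neuron matures and are kept on through life by terminal selector transcription factors. Acetylcholine and GABA act in opposition at the body wall muscles, glutamate serves many sensory neurons, and the amines dopamine, serotonin, tyramine and octopamine set feeding, egg laying and locomotion states.

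Totals ran from 22587893 to 36083371 counts per library in course B and from 16241561 to 29911888 in course A. Levels are given as CPM, counts per 1000000 after TMM scaling of the library totals. Genes of other tissues moved strongly over the same hours: 13 of 15 germline and oocyte genes and 7 of 7 sperm genes rose in both courses. Of all genes tested in both courses, 15% did so. The summed level of the 15 germline genes was 1101 to 2531 CPM in the last 4 libraries of course B, against 507 to 807 CPM in its first 4. It was 1005 to 2404 CPM in the last 4 libraries of course A, against 491 to 666 CPM in its first 4. The 7 sperm genes summed to 35.8 to 415 CPM in the last 4 libraries of course B, against 2.14 to 2.97 CPM in its first 4, and to 237 to 340 CPM in the last 4 of course A, against 5.49 to 7.30 CPM in its first 4. No gene of either list was at 0 throughout a course. The 8 body wall muscle genes had median changes of -0.19 in course B and 0.05 in course A on the log2 scale over 15 h. The part of the growing germline in the results below was not tested. In whole worms, less of a transcript per cell and a smaller share of a cell type in the total RNA cannot be told apart.

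Levels were compared between genes only per kilobase of annotated exon. On that scale bas-1 and unc-25 led in both courses, with medians of 34.0 and 31.0 CPM per kilobase in course B, and 32.1 and 21.7 CPM per kilobase in course A. The range of bas-1 over libraries overlapped that of unc-25 in each course, and bas-1 was the higher of the pair in 5 of 10 course B libraries and 13 of 16 course A libraries. tdc-1 came next, with medians of 8.12 CPM per kilobase in course B and 12.4 in course A. The cholinergic genes cha-1, cho-1 and unc-17, with unc-47 and eat-4, lay close together, between medians of 2.96 and 6.60 CPM per kilobase in course B and between 2.24 and 4.21 in course A. Within that group, cha-1 stood above cho-1 and cho-1 above unc-17 in 10 of 10 course B libraries, while in course A cho-1 exceeded cha-1 in 8 of 16 libraries. cat-2 and tph-1 were the lowest, at medians of 1.65 and 0.692 CPM per kilobase in course B and 1.31 and 0.892 in course A. cat-2 exceeded tph-1 in 10 of 10 course B libraries and 13 of 16 course A libraries.

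Over larval time the genes parted. All 3 cholinergic genes, both GABA genes, eat-4 and cat-2 fell in both courses. tph-1 fell in course B and was not called in course A. bas-1 was not called in either course, and tdc-1 rose in course A. A gene was called when its linear change over 15 h reached 1 on the log2 scale with an adjusted p under 0.05 in edgeR's quasi-likelihood test, fitted over all genes with an 8 h wave beside the linear term. By this rule 8 of the 10 genes fell in course B, where 12.1% of the 15003 genes tested fell and 16% rose (28.2% in all). In course A 7 fell and 1 rose, where 12.7% of 15888 genes fell and 21.1% rose (33.8% in all). The 7 that fell in both courses stand beside 7.84% of the 14920 genes tested in both. The median change of the 10 genes was -1.24 in course B and -1.18 in course A, beside medians over all genes tested of -0.06 in course B and 0.04 in course A. At the 8 times that both courses share, taken alone, only cho-1, unc-25 and cat-2 fell in course A, where fewer libraries enter the fit. unc-17 (-1.47, edgeR adjusted p = 0.0510) and unc-47 (-1.07, edgeR adjusted p = 0.0525) kept changes past 1 there and missed the adjusted p, while cha-1 (-0.80) and eat-4 (-0.86) were under the minimum.

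**Figure D1:**
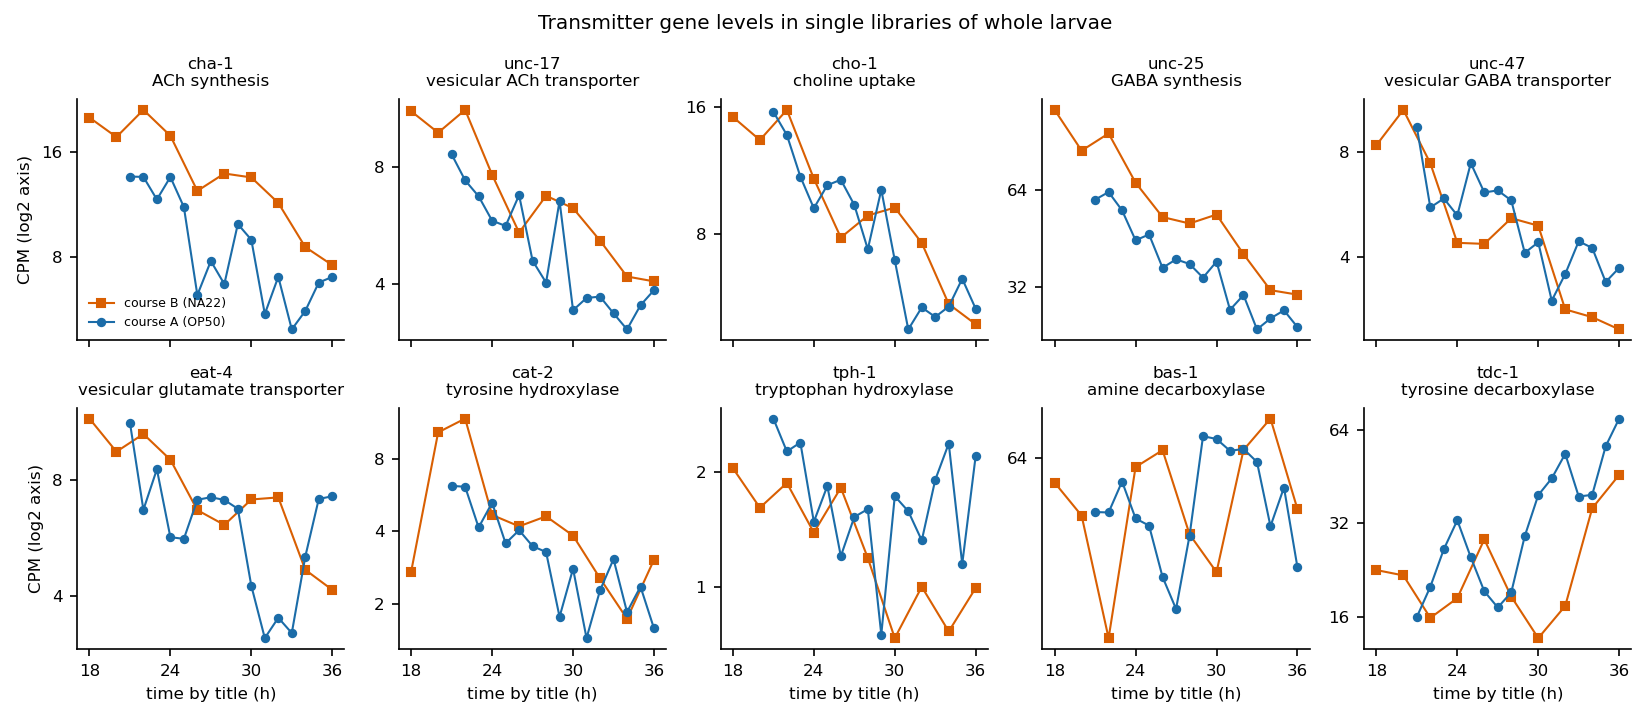
Level of each of the 10 genes in CPM (vertical, log2 axis, scaled per panel) against the title time in hours (horizontal), with orange squares for the 10 course B libraries and blue circles for the 16 course A libraries. The 3 cholinergic genes and unc-25 slope down in both courses, bas-1 lies between 33.7 and 73.6 CPM, and tdc-1 is highest at 36 h in both.

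Acetylcholine is made by choline acetyltransferase, the product of cha-1, and loaded into vesicles by the transporter UNC-17. CHO-1 brings choline back into the terminal. cha-1 ran from 7.56 CPM at 36 h to 21.1 CPM at 22 h in course B, with a median of 13.7 CPM, and from 4.94 CPM at 33 h to 13.6 CPM at 21 h in course A, with a median of 7.38 CPM. The last 4 libraries lay below the first 4 without overlap in each course. The fitted change of cha-1 was -1.18 ± 0.12 in course B (SE, log2 over 15 h, edgeR adjusted p = 8.46e-05) and -1.07 ± 0.26 in course A (edgeR adjusted p = 0.00299). In course A the value fell just short of the minimum of 1 without the 24 h (-0.98), 25 h (-0.97) or 31 h (-0.91) library.

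unc-17 ran from 4.06 to 11.2 CPM in course B, with a median of 6.50 CPM, and from 3.05 to 8.61 CPM in course A, with a median of 4.31 CPM. It fell by 1.30 ± 0.15 in course B and by 1.32 ± 0.24 in course A, with edgeR adjusted p-values of 0.000176 and 0.000271. cho-1 ran from 4.88 to 15.8 CPM in course B, with a median of 9.05 CPM, and from 4.74 to 15.6 CPM in course A, with a median of 8.29 CPM. Its change was -1.38 ± 0.14 in course B (edgeR adjusted p = 6.58e-05) and -1.65 ± 0.19 in course A (edgeR adjusted p = 2.39e-06). For both genes the last 4 libraries of a course lay below the first 4 without overlap.

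The cha-1 and unc-17 genes form 1 locus on chromosome IV and, in the WBcel235 annotation, share 66 bases of exon on the same strand, which is 3.4% of the exon bases of unc-17. Reads from that stretch cannot be assigned to one of them. Per exon length, the counts of unc-17 were 0.463 to 0.599 times those of cha-1 in course B, with a median of 0.526. In course A the same ratio spread from 0.412 at 30 h to 1.18 at 26 h, with a median of 0.607. The ratio of unc-17 to cho-1 per exon length moved less in course A, from 0.5001 to 0.7929, and lay between 0.693 and 0.850 in course B.

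GABA is made from glutamate by the decarboxylase UNC-25 and loaded by the vesicular transporter UNC-47. unc-25 was the most deeply counted of the falling genes, with 737 to 3626 counts per library in course B and 497 to 1488 in course A. It ran from 30.4 CPM at 36 h to 112.6 CPM at 18 h in course B, with a median of 53.2 CPM, and from 23.8 CPM at 33 h to 62.9 CPM at 22 h in course A, with a median of 37.3 CPM. Its last 4 libraries averaged 39.0 ± 10.8 CPM in course B, against 89.9 ± 19.1 CPM in the first 4 (SD, n = 4 each), and 25.2 ± 1.57 CPM in course A, against 55.6 ± 7.92 CPM in the first 4. The 2 windows did not overlap in either course. The fitted change was -1.59 ± 0.11 in course B (edgeR adjusted p = 7.68e-06) and -1.29 ± 0.12 in course A (edgeR adjusted p = 3.21e-07).

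unc-47 ran from 2.47 to 10.6 CPM in course B, with a median of 4.65 CPM, and from 2.99 to 9.41 CPM in course A, with a median of 4.84 CPM. The last 4 and first 4 libraries overlapped in course B, where the 24 h library held 4.38 CPM and the 30 h library 4.91 CPM, and did not overlap in course A. It fell by 1.67 ± 0.19 in course B (edgeR adjusted p = 0.000141) and by 1.37 ± 0.22 in course A (edgeR adjusted p = 9.18e-05). Per exon length the counts of unc-47 were a small share of those of unc-25, with a median ratio of 0.0896 in course B and 0.152 in course A. The ratio ranged from 0.0713 to 0.137 in course B and from 0.0962 to 0.204 in course A, so the ranges of the courses overlapped.

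EAT-4 is the vesicular glutamate transporter that defines glutamatergic neurons. eat-4 ran from 4.16 CPM at 36 h to 11.5 CPM at 18 h in course B, with a median of 7.16 CPM, and from 3.12 CPM at 31 h to 11.3 CPM at 21 h in course A, with a median of 6.72 CPM. Course B stepped down with small returns, while course A dipped to between 3.12 and 3.52 CPM at 31 to 33 h and returned to 7.26 CPM at 36 h. Its last 4 libraries therefore lay below the first 4 in course B and overlapped them in course A. The fitted linear change was -1.12 ± 0.14 in course B (edgeR adjusted p = 0.000248) and -1.06 ± 0.26 in course A (edgeR adjusted p = 0.00289). The course A value lost its call without the 23 h (-0.94), 30 h (-0.99) or 31 h (-0.97) library, with linear time alone (-0.71) and with a period of 7 h (-0.85). At the 8 shared times alone the call was lost in both courses, at -0.95 in course B and -0.86 in course A. Short stretches of eat-4 exon are overlapped on the opposite strand by ZK512.2, which held 124 to 184 CPM in course B and 84.8 to 138 CPM in course A, and by ZK512.7. Whether strand was used in counting is not given in the sources used here.

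Dopamine is made by the tyrosine hydroxylase CAT-2 and then the aromatic amino acid decarboxylase BAS-1. cat-2 ran from 1.75 CPM at 34 h to 11.7 CPM at 22 h in course B, with a median of 4.02 CPM, and from 1.45 CPM at 31 h to 6.17 CPM at 21 h in course A, with a median of 3.18 CPM. In course B the 18 h library was low, at 2.73 CPM, and the 20 and 22 h libraries were the highest, at 10.3 and 11.7 CPM, so the last 4 and first 4 libraries overlapped. In course A they did not overlap. The fitted change was -1.43 ± 0.38 in course B (edgeR adjusted p = 0.0137) and -1.89 ± 0.32 in course A (edgeR adjusted p = 0.000141). In course B the call was lost without the 20 h (-1.26) or the 36 h (-1.37) library, with linear time alone (-1.59), and with a period of 9 h (-1.13).

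Serotonin is made by the tryptophan hydroxylase TPH-1 and then BAS-1. In the WBcel235 annotation, ZK1290.19 overlaps 102 exon bases of tph-1 (5.5%) on the opposite strand, and ZK1290.10 overlaps 43 (2.3%). The part of reads from these genes in the tph-1 counts was not tested. tph-1 was the faintest of the 10, with 18 to 66 counts per library in course B and 22 to 69 in course A. It ran from 0.737 to 2.05 CPM in course B, with a median of 1.29 CPM, and from 0.752 to 2.76 CPM in course A, with a median of 1.67 CPM. The last 4 libraries lay below the first 4 in course B, at 0.737 to 1.00 CPM against 1.39 to 2.05 CPM, and overlapped them in course A. It fell by 1.11 ± 0.28 in course B (edgeR adjusted p = 0.0116), and its change of -0.26 ± 0.42 in course A was not called (edgeR adjusted p = 0.641). The course B call was lost without the 22 h (-0.96), 30 h (-0.98) or 34 h (-0.87) library. It was also lost with limma, where the change was under the minimum of 1 (-0.92, limma adjusted p = 0.0181). The difference between the courses, -0.80 ± 0.54 (B minus A), was not called (edgeR adjusted p = 0.536).

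BAS-1 serves both dopamine and serotonin neurons. bas-1 ran from 33.7 CPM at 22 h to 73.6 CPM at 34 h in course B, with a median of 55.9 CPM, and from 37.4 CPM at 27 h to 69.1 CPM at 29 h in course A, with a median of 52.7 CPM. Its last 4 libraries averaged 58.8 ± 13.7 CPM in course B, against 51.6 ± 12.6 CPM in the first 4, and 53.5 ± 8.62 CPM in course A, against 53.96 ± 3.28 CPM in the first 4 (SD, n = 4 each). These windows overlapped in both courses. The fitted linear change was 0.22 ± 0.12 in course B (edgeR adjusted p = 0.174) and 0.48 ± 0.17 in course A (edgeR adjusted p = 0.0250), under the minimum of 1 in both. Per exon length the counts of cat-2 were 0.234 times those of bas-1 at 22 h and 0.0160 times at 34 h in course B, and spanned 0.0790 at 21 h to 0.0150 at 31 h in course A.

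basl-1, a gene named for its likeness to bas-1, was chosen after its values were seen. It stood at 1.15 to 37.5 CPM in the last 4 libraries of course B, against 0.0989 to 0.262 CPM in the first 4, and at 28.5 to 45.6 CPM in the last 4 libraries of course A, against 0.168 to 0.527 CPM in the first 4. How reads of related sequence were split between bas-1 and basl-1 is not given in the sources used here.

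TDC-1 is the tyrosine decarboxylase that makes tyramine, the precursor of octopamine. In C. elegans it is known from a few interneurons and also from the gonadal sheath and the uv1 cells beside the vulva. tdc-1 ran from 13.7 CPM at 30 h to 45.8 CPM at 36 h in course B, with a median of 20.2 CPM, and from 16.02 CPM at 21 h to 69.5 CPM at 36 h in course A, with a median of 31.0 CPM. Both courses also held an earlier, smaller maximum, of 28.45 CPM at 26 h in course B and 32.8 CPM at 24 h in course A. The last 4 libraries overlapped the first 4 in course B, at 13.7 to 45.8 CPM against 15.9 to 22.7 CPM, and lay above them in course A, at 39.1 to 69.5 CPM against 16.02 to 32.8 CPM. The fitted change of 0.61 ± 0.23 in course B was not called (edgeR adjusted p = 0.0623), and tdc-1 rose by 2.11 ± 0.21 in course A (edgeR adjusted p = 4.78e-07).

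The test of the difference in trend between the courses called none of the 10 genes at an adjusted p under 0.05 in edgeR, beside 0.46% of the 16076 genes tested. tdc-1 came nearest, with a difference of -1.45 ± 0.34 (B minus A, edgeR adjusted p = 0.0548). tdc-1 was also the 1 gene of the 10 at an unadjusted p under 0.05, and DESeq2 (-1.40) and limma (-1.37) each called it. It passed too with total counts as the only scaling (-1.37), and without the 24 h (-1.53) or 33 h (-1.52) library of course A or the 28 h (-1.31) or 36 h (-1.85) library of course B. It did not pass with DESeq2's size factors in edgeR (-1.40, adjusted p = 0.0678), without the low count filter (-1.45, edgeR adjusted p = 0.0604) or at the 8 shared times alone (-1.42, edgeR adjusted p = 0.596), and the adjusted p ranged from 0.00968 to 0.126 with 1 library left out. The other 9 differences lay between -0.80 for tph-1 and 0.51 for cat-2. The bacterium, the medium, the growth run and the span of hours differ between the courses, and equal title times need not be equal stages. Their parts in a trend difference cannot be told apart.

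**Figure D2:**
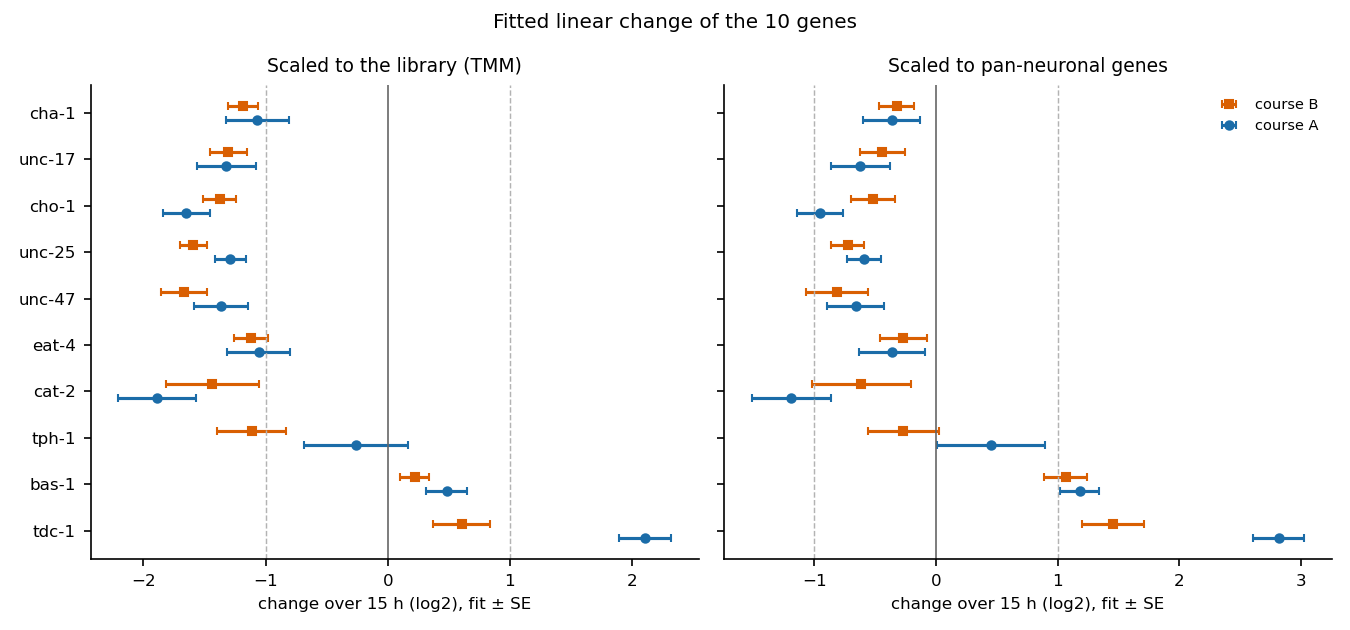
Fitted change over 15 h on the log2 scale (horizontal, point ± SE) for the 10 genes (rows), with course B as orange squares above course A as blue circles; dashed lines mark -1 and 1. Left, libraries scaled by TMM; right, libraries scaled by the summed counts of 12 pan-neuronal genes, where bas-1 (1.07 in course B and 1.18 in course A) and tdc-1 (1.45 in course B and 2.82 in course A) lie past 1.

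To set the 10 genes against neurons rather than whole worms, each library was rescaled to the summed counts of 12 pan-neuronal genes, which most or all neurons express. That sum was 1470 to 2061 CPM in the last 4 libraries of course B, against 2672 to 3194 CPM in the first 4, and 1014 to 1082 CPM in the last 4 of course A, against 1396 to 1741 CPM in the first 4. The gene unc-44 weighed most in it, with 2242 of 3194 CPM at 22 h in course B and 1094 of 1741 CPM at 21 h in course A. On this scale bas-1 and tdc-1 rose in both courses, and they were 2 of the 10 genes in each, beside 35.1% of all genes tested in course B and 36.8% in course A. In either direction the shares of all genes called were 36.6% in course B and 40.8% in course A. bas-1 changed by 1.07 ± 0.18 in course B (edgeR adjusted p = 0.000643) and 1.18 ± 0.16 in course A (edgeR adjusted p = 8.37e-06). The course B call of bas-1 was lost without the 18 h (0.95) or 22 h (0.97) library. tdc-1 changed by 1.45 ± 0.25 in course B (edgeR adjusted p = 0.000869) and 2.82 ± 0.21 in course A (edgeR adjusted p = 9.73e-09). The geometric mean of the 12 genes and the summed vesicle release genes also served as scales. Over all of these scales bas-1 changed by 1.07 to 1.11 in course B and 1.17 to 1.28 in course A. tdc-1 changed by 1.45 to 1.51 in course B and 2.81 to 2.91 in course A.

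Of the falling genes, only cat-2 in course A still fell past the minimum on the pan-neuronal scale, by 1.19 ± 0.33 (edgeR adjusted p = 0.00497), beside 3.96% of all genes. Its course B value was -0.61 ± 0.40 (edgeR adjusted p = 0.215) and was called without the 18 h library (-1.15). cho-1, unc-25 and unc-47 passed the adjusted p in both courses with changes under the minimum. cho-1 stood at -0.52 in course B and -0.95 in course A, unc-25 at -0.73 in course B and -0.59 in course A, and unc-47 at -0.81 in course B and -0.66 in course A. cha-1 (-0.32 in course B, -0.36 in course A) and eat-4 (-0.27 in course B, -0.36 in course A) did not pass the adjusted p in either. The median of all genes on this scale was 0.79 in course B and 0.75 in course A, while the median of the 10 was -0.38 in course B and -0.48 in course A.

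Waves of 8 h were tested in the same fits. A fitted peak is given as 1 hour within an 8 h window and recurs every 8 h. A later peak hour in 1 course therefore need not be a later peak. Of the 10 genes, tdc-1 was the 1 called oscillating in course B, beside 21% of all genes tested, and eat-4 was the 1 called in course A, beside 22.8%. Across all genes tested in both courses, 16.5% were called in both. tdc-1 had a fitted peak-to-trough difference of 1.12 ± 0.27 in course B, peaking at 26.8 h (edgeR adjusted p = 0.0370), and of 0.81 ± 0.19 in course A, peaking at 31.0 h (edgeR adjusted p = 0.00924, under the minimum of 1). The course B call of tdc-1 was lost when any 1 of 9 of the 10 libraries was left out, the exception being 28 h, with values of 0.95 to 1.29. It was also lost with limma (0.995, limma adjusted p = 0.0653) and with total counts as the only scaling (1.02, edgeR adjusted p = 0.0609).

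eat-4 had a peak-to-trough difference of 0.45 ± 0.15 in course B (edgeR adjusted p = 0.125) and of 1.03 ± 0.21 in course A, peaking at 27.8 h (edgeR adjusted p = 0.00428). The course A value slipped under the minimum of 1 without the 21 h (1.00), 31 h (0.94), 33 h (0.98) or 36 h (0.96) library. bas-1 passed the adjusted p in both courses with smaller waves, of 0.79 ± 0.14 in course B peaking at 25.6 h (edgeR adjusted p = 0.00839) and 0.64 ± 0.14 in course A peaking at 30.7 h (edgeR adjusted p = 0.00761). cat-2 had the widest wave in course B, 1.46 ± 0.40, which did not pass (edgeR adjusted p = 0.0582) but was called without the 26 h library (1.79). The cat-2 wave was also called by DESeq2 (1.48, DESeq2 adjusted p = 0.0169) and by limma (1.46, limma adjusted p = 0.0463). With total counts as the only scaling it was called too (1.53, edgeR adjusted p = 0.0467). Which of cat-2 and tdc-1 was called in course B thus depended on the method. The 3 cholinergic genes and both GABA genes had peak-to-trough differences of 0.31 to 0.68 in course B and 0.21 to 0.55 in course A, none of them called.

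The same test was read for 32 other genes that load, take up, break down or help make the same transmitters. Of these, 14 (43.8%) were called oscillating in course B, beside 21% of all genes, and 8 (25.0%) in course A, beside 22.8%. The same 8 were called in both courses. amx-2, an amine oxidase gene, had the deepest wave in course A, with peak-to-trough differences of 2.78 in course B and 2.96 in course A. vglu-3, a relative of the vesicular glutamate transporter, had 2.81 in course B and 2.77 in course A. qdpr-1, which recycles the biopterin cofactor of the amine hydroxylases, had 1.98 in course B and 1.75 in course A. The dopamine transporter gene dat-1 had 1.19 in course B and 1.23 in course A, and the serotonin transporter gene mod-5 had 1.07 in course B and 1.25 in course A. These genes were named after their values were seen.

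For lasting change, 9 of these 32 genes fell and 3 rose in both courses, beside 7.84% of all genes tested that fell in both and 15% that rose in both. All 4 acetylcholinesterase genes fell, as did dat-1, unc-46, which brings UNC-47 to vesicles, snf-11, the plasma membrane GABA transporter, and the glutamate transporters glt-3 and glt-7. Of these 9, ace-4 and unc-46 have values here by the naming rule, and the others are named to complete the count, after their values were seen. ace-4 stood at 0.137 to 2.92 CPM in course B and 0.466 to 4.93 CPM in course A and fell by 2.49 ± 0.55 in course B (edgeR adjusted p = 0.00565) and by 1.79 ± 0.37 in course A (edgeR adjusted p = 0.000805). Its course B call was lost with linear time alone (-2.10), quadratic time (-2.11) and the 8 shared times alone (-1.49). In course A it was lost at the 8 shared times alone (-1.56). unc-46 ran from 1.45 to 7.24 CPM in course B and 1.35 to 6.97 CPM in course A, and fell by 1.83 ± 0.25 in course B and by 2.00 ± 0.37 in course A. glt-6 fell by 1.46 ± 0.29 in course A, and its change of -0.94 ± 0.34 in course B was not called.

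The 3 that rose in both were the glutaminase genes glna-1 (named after its values were seen) and glna-3, and hdl-1, a relative of the amino acid decarboxylases. glna-3 averaged 32.4 CPM over the last 4 libraries of course B (11.8 to 65.4 CPM), against 10.9 CPM over the first 4, and 68.6 CPM over the last 4 of course A, against 11.4 CPM over the first 4. Its course B change was not called by limma (1.66, limma adjusted p = 0.0522) and ran from 0.96 to 2.27 with 1 library left out. hdl-1 averaged 12.8 CPM over the last 4 libraries of course B, against 0.122 CPM over the first 4, and 20.2 CPM over the last 4 of course A, against 0.0569 CPM over the first 4. It had 0 counts in the 24 h library of course B and in the 21 and 22 h libraries of course A, where a count of 0 allows up to 0.112 CPM in course B and 0.134 and 0.164 CPM in course A (3 counts of the unscaled total, counting error only).

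tbh-1, the tyramine beta-hydroxylase that turns tyramine into octopamine, was highest at 36 h in both courses, as was tdc-1. It ran from 0.777 CPM at 30 h to 12.1 CPM at 36 h in course B, with a median of 1.56 CPM, and from 0.594 CPM at 27 h to 74.3 CPM at 36 h in course A, with a median of 1.07 CPM. Its fitted change of 1.02 ± 0.79 in course B was not called (edgeR adjusted p = 0.323), and it rose by 4.89 ± 1.28 in course A (edgeR adjusted p = 0.00512). Without the 36 h library the course B value of tbh-1 was -0.61.

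The level of tdc-1 was also set beside genes that could share its signal. gei-14 overlaps 73 exon bases of tdc-1 on the opposite strand in the WBcel235 annotation, 2.9% of its exon bases. gei-14 stood at 22.1 to 48.9 CPM in the last 4 libraries of course B, against 10.7 to 17.5 CPM in the first 4, and at 48.4 to 83.4 CPM in the last 4 of course A, against 22.2 to 26.2 CPM in the first 4. Of 3 genes known from the gonadal sheath or uv1 cells (lim-7, ceh-18 and ocr-2), none was at 0 over a course. Their sum was 46.3 to 63.3 CPM in the last 4 libraries of course B, against 54.4 to 93.3 CPM in the first 4, and 45.2 to 55.2 CPM in the last 4 of course A, against 40.9 to 52.9 CPM in the first 4. lim-7 changed by -0.22 ± 0.19 in course B and 0.34 ± 0.20 in course A, and ceh-18 by -0.56 ± 0.15 in course B and -0.29 ± 0.17 in course A, none of them called. ocr-2, a channel gene of the uv1 cells and of sensory neurons, changed by 0.25 ± 0.34 in course B (edgeR adjusted p = 0.579) and rose by 1.03 ± 0.32 in course A (edgeR adjusted p = 0.0149). In course A its last 4 libraries (5.62 to 7.70 CPM) overlapped its first 4 (3.61 to 6.77 CPM), and it was highest at 31 h. The part of gei-14 reads or of these cells in the level of tdc-1 was not tested.

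**Figure D3:**
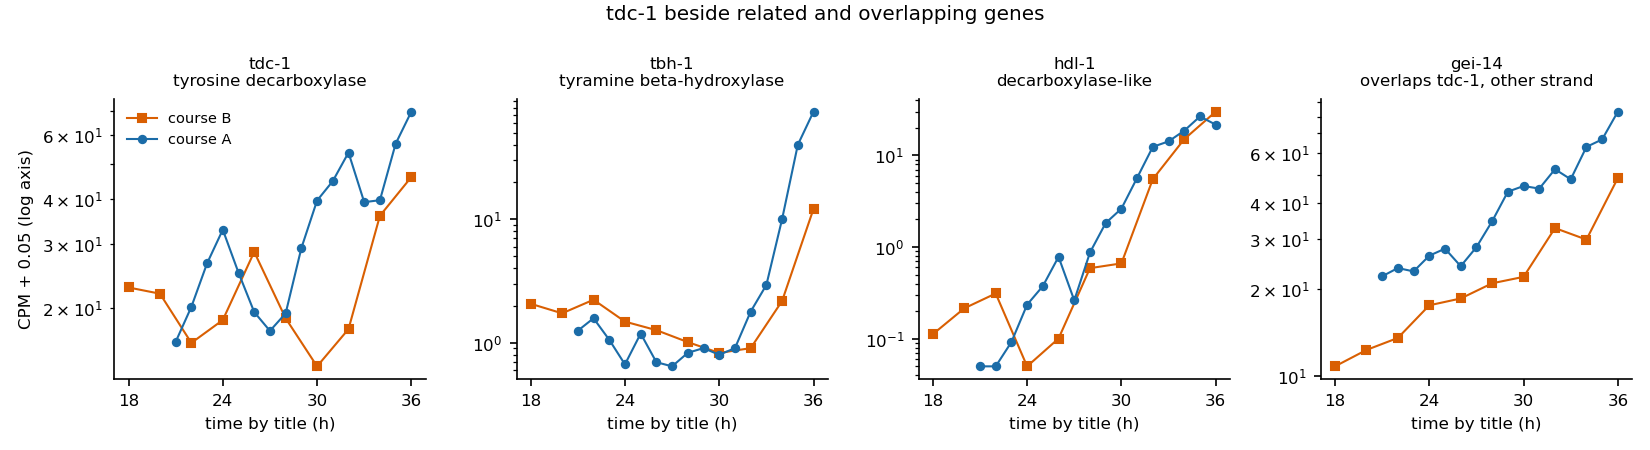
CPM + 0.05 (vertical, log axis) against title time in hours (horizontal) for tdc-1, tbh-1, hdl-1 and gei-14, with orange squares for course B and blue circles for course A. All 4 end high in both courses: at 36 h tbh-1 reached 12.1 CPM in course B and 74.3 CPM in course A.

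Genes expressed across neurons were set beside the transmitter genes. Glia marker genes moved over the same hours: the sum of 6 was 143.5 to 283 CPM in the last 4 libraries of course B, against 183 to 502 CPM in the first 4, and 74.5 to 160 CPM in the last 4 of course A, against 231 to 337 CPM in the first 4. Of the 5 glia genes tested, 2 fell in course B, beside 12.1% of all genes tested, and 1 in course A, beside 12.7%. None of the 6 was at 0 throughout a course. The part of glia in these falls was not tested. Of 17 synaptic vesicle release genes, 10 fell in course B and 7 in course A, and 7 fell in both. The shares of all genes tested were 12.1%, 12.7% and 7.84%. The median changes of the 17 were -1.08 in course B and -0.88 in course A. unc-10, the active zone protein RIM, fell by 1.46 ± 0.20 in course B and by 1.70 ± 0.17 in course A. sng-1, synaptogyrin, fell by 1.65 ± 0.13 in course B and by 1.37 ± 0.20 in course A. cpx-1, complexin, and snt-1, synaptotagmin, fell in both as well, by 1.498 and 1.24 in course B and by 1.47 and 1.17 in course A. unc-64, syntaxin, fell by 1.09 ± 0.11 in course B and stood at -0.43 ± 0.19 in course A, and unc-13 fell by 1.08 ± 0.13 in course B and stood at -0.88 ± 0.13 in course A.

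Of the 12 pan-neuronal genes, 4 fell in both courses, beside 7.84% of all genes tested in both. They were sad-1, rab-3, rgef-1 and egl-3, which fell by 1.06 to 1.47 in course B and by 1.13 to 1.41 in course A. The list medians were -0.93 in course B and -0.89 in course A. With a minimum of 0.5 in place of 1, 10 of the 12 fell in course B and 9 in course A. The share of all genes that fell at that minimum was not counted. Transcription factors of transmitter identity had the lowest medians of the neuronal lists. Of 16 tested in both courses, 11 fell in both, beside 7.84% of all genes tested in both. The list medians were -1.78 in course B and -1.89 in course A. unc-3, the selector of cholinergic motor neurons, fell by 2.63 ± 0.24 in course B and by 2.58 ± 0.53 in course A. unc-30, the selector of GABA motor neurons, fell by 1.71 ± 0.19 in course B and by 2.37 ± 0.25 in course A. unc-86 and unc-42, which act in glutamatergic and other neurons, fell by 2.13 ± 0.16 and 2.10 ± 0.21 in course B and by 2.00 ± 0.24 and 2.09 ± 0.34 in course A. ast-1, a dopamine neuron selector, fell by 1.82 ± 0.19 in course B and by 2.13 ± 0.23 in course A. unc-30 and ast-1 were named after their values were seen. nhr-67, a nuclear receptor of the same list, fell by 2.03 ± 0.21 in course B and by 2.18 ± 0.30 in course A. In course A 2 of the 17 factors tested rose, beside 21.1% of all genes tested. lim-6 rose by 1.56 ± 0.39 (edgeR adjusted p = 0.00393) and ceh-14 by 2.09 ± 0.43 (edgeR adjusted p = 0.000817). In course B lim-6 changed by 0.61 ± 0.22 (edgeR adjusted p = 0.0538) and ceh-14 by 0.32 ± 0.37 (edgeR adjusted p = 0.509), neither called. Both were named after their values were seen. egl-46 fell in course B (-1.85 ± 0.47) and was not called in course A (-2.35 ± 0.98, edgeR adjusted p = 0.0593).

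**Figure D4:**
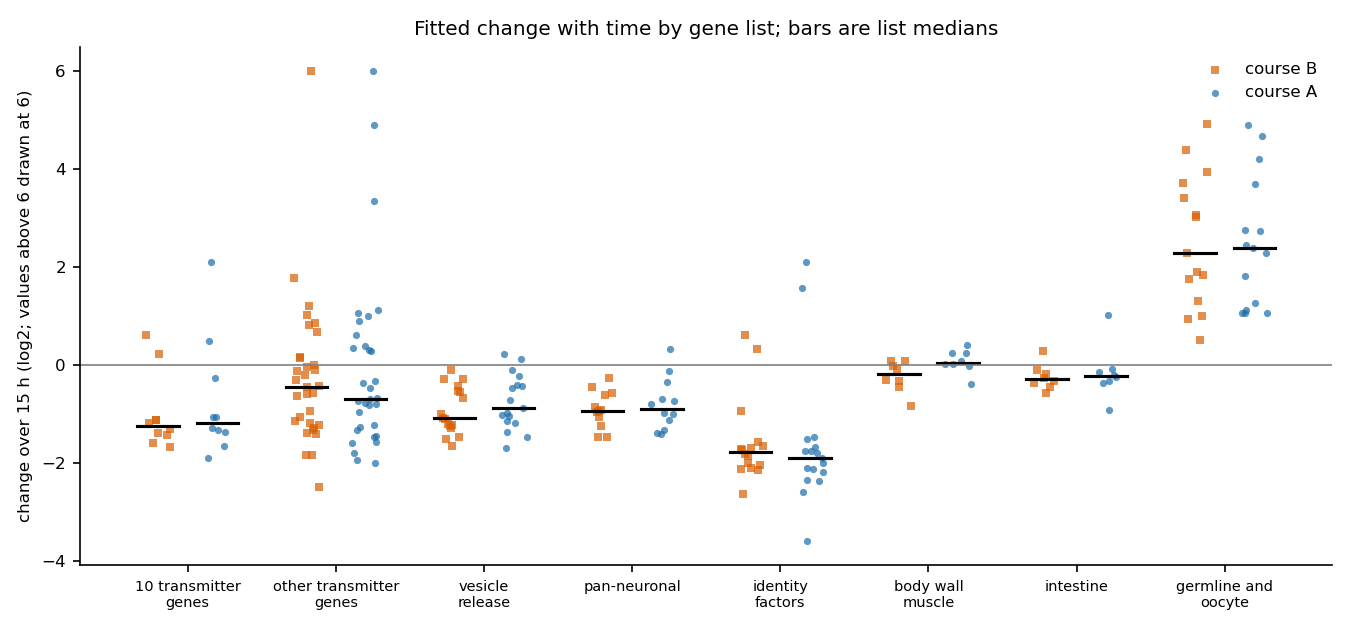
Fitted change over 15 h on the log2 scale (vertical, values above 6 drawn at 6) of each gene by list (horizontal), orange squares for course B left of blue circles for course A, with bars at the list medians. The 10 transmitter genes (medians -1.24 in course B and -1.18 in course A) lie beside the vesicle release and pan-neuronal genes, above the identity factors (-1.78 in course B and -1.89 in course A) and below the germline genes (2.29 in course B and 2.39 in course A).

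The courses were compared at the 8 shared title times, 22 to 36 h, with time as a block. The bacterium, the medium and the growth run change together between the courses and cannot be told apart. Nor need equal title times be equal stages. The waves of amx-2, vglu-3 and dat-1 peaked at 29.6, 29.3 and 30.1 h in course B. In course A they peaked at 27.2, 27.0 and 27.3 h. Those of qdpr-1 and mod-5 peaked at 24.4 and 24.8 h in course B and at 29.7 and 30.3 h in course A. These hours recur every 8 h, so the 2 sets of hours do not run in opposite directions. The next course B peaks of qdpr-1 and mod-5, 8 h on, follow their course A peaks by a margin like that of amx-2, vglu-3 and dat-1. The part of stage in the course differences was not tested, and other clocks are given below. None of the 10 genes was called, beside 9.53% of 15639 genes, with 1.79% higher and 7.74% lower in course B. At an unadjusted p under 0.05 there were 5 of the 10, and neither DESeq2 nor limma called any past the minimum of 1.

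cha-1 and unc-25 differed past the adjusted p by less than the minimum. cha-1 averaged 13.3 ± 4.50 CPM in course B and 8.56 ± 3.22 CPM in course A (SD over 8 times), was higher in course B at 8 of 8 times, and differed by 0.62 ± 0.12 (log2, B minus A, edgeR adjusted p = 0.00644). unc-25 averaged 52.7 ± 21.2 CPM in course B and 37.6 ± 12.3 CPM in course A, was higher at 8 of 8 times, and differed by 0.43 ± 0.06 (edgeR adjusted p = 0.00137). Both values were smaller on the other clocks that were run. Each of those clocks paired course A libraries with later course B titles. Such pairing tends to lower B minus A for genes that fell with time and to raise it for genes that rose. Smaller values of cha-1 and unc-25 were therefore built in, and a move the other way was not run. With course A taken 3 h earlier, each course A library met the course B title 3 h later. There cha-1 differed by 0.40 (edgeR adjusted p = 0.0165) and unc-25 by 0.18 (edgeR adjusted p = 0.0791). By harvest times cha-1 differed by 0.56 (edgeR adjusted p = 0.00753) and unc-25 by 0.39 (edgeR adjusted p = 0.00519). With total counts as the only scaling, where the median of all genes moved to -0.38 (-0.13 with TMM), cha-1 differed by 0.37 and unc-25 by 0.18.

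unc-17 was higher in course B at 7 of 8 times, with a difference of 0.39 ± 0.16 (edgeR adjusted p = 0.103), and differed by 0.016 with course A taken 3 h earlier (edgeR adjusted p = 0.938). tph-1 and tdc-1 were lower in course B at 7 of 8 times each. tph-1 differed by -0.59 ± 0.25 (edgeR adjusted p = 0.104) and tdc-1 by -0.59 ± 0.23 (edgeR adjusted p = 0.0896). With course A taken 3 h earlier, tph-1 differed by -0.69 (edgeR adjusted p = 0.0212) and tdc-1 by -0.21 (edgeR adjusted p = 0.189). The differences of cho-1 (0.11 ± 0.14), bas-1 (0.04 ± 0.17), eat-4 (0.21 ± 0.23), unc-47 (-0.26 ± 0.16) and cat-2 (0.33 ± 0.18) did not pass the adjusted p. On the clock moved by 3 h, unc-47 differed by -0.59 (edgeR adjusted p = 0.00758), while cho-1 differed by -0.26, cat-2 by 0.09, and bas-1 and eat-4 by 0.03 each.

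Among the pan-neuronal genes, unc-33 was higher in course B by 1.11 ± 0.19 (edgeR adjusted p = 0.00395). unc-33 encodes a cytoskeletal protein of the CRMP family and ran from 63.4 to 118 CPM in course B and from 24.6 to 62.6 CPM in course A, without overlap. hlh-3, a proneural factor, was lower in course B by 1.20 ± 0.33 (edgeR adjusted p = 0.0258), at no more than 0.632 CPM in course B and 1.32 CPM in course A.

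**Figure D5:**
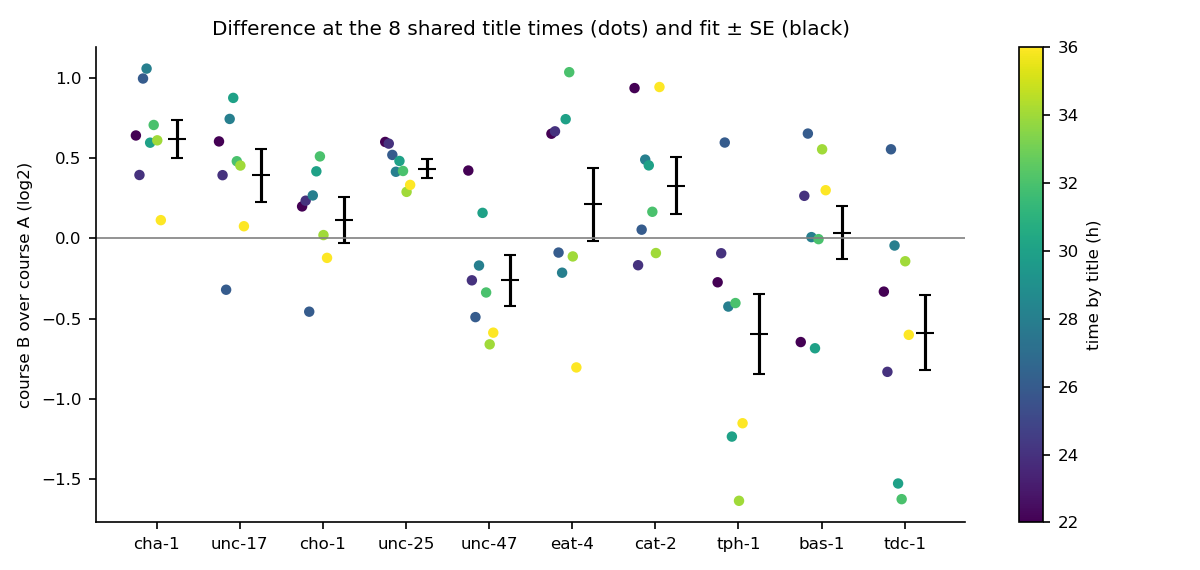
Log2 ratio of the CPM in course B to that in course A (vertical) for the 10 genes (horizontal), 1 dot per shared title time from 22 to 36 h (colour), with the fitted difference ± SE in black. All 8 dots lie above 0 for cha-1 and unc-25, and 7 of 8 lie below 0 for tph-1 and tdc-1.

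The 10 genes were last compared with every named gene of at least 1 CPM on average (13429 genes), by the Pearson correlation of log2(CPM + 0.5) over the 26 libraries after each course's mean was taken out. These correlations are descriptions, since all genes share the libraries, their depth and the change of tissue proportions with age. The 21 pairs among the 7 genes that fell in both courses had correlations of 0.506 to 0.959, with a median of 0.769. cho-1 and unc-17 were the closest pair at 0.959, and cho-1 was most like casy-1, a calsyntenin gene, at 0.964. cha-1 was most like cab-1 at 0.963. unc-25 was most like mec-7 and mec-12, tubulin genes of the touch receptor neurons, at 0.966 and 0.963, and unc-47 was most like sng-1 and rab-3, at 0.929 and 0.928.

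Likeness was looser for the others. eat-4 was most like T07F12.4 at 0.924, and cat-2 was most like des-2 and deg-3, acetylcholine receptor subunit genes, at 0.890 and 0.877. tph-1, with its low counts, reached only 0.809 with dgk-5. bas-1 was most like txt-4 at 0.908. tdc-1 was most like ddo-3 at 0.928, followed by the myosin genes mlc-4 at 0.909 and nmy-1 at 0.909.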

How the data were processed

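Ribosome-depleted total RNA was sequenced from whole worms, with libraries made with the ScriptSeq v2 kit per the labels' protocols. The deposited table holds raw counts per gene for each library, and a second deposited table holds log2 values. Scaling each count to its course's mean total, adding 8 and taking log2 matched the authors' log2 values to within 5e-05. The aligner is not given in the sources used here, nor are the counting tool, use of strand, genome build and annotation. Names were joined by WormBase identifier for 18778 genes. Exon lengths and overlaps came from the WBcel235 annotation.

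The main tests used edgeR 4.0.16 in R 4.3.3 (quasi-likelihood F tests, robust, TMM), on genes that reached 10 counts, scaled to the median library, in 3 or more libraries, with Benjamini-Hochberg adjustment over all genes tested. Each course was fitted apart with a linear time term and an 8 h cosine and sine. With no repeated time point, the spread came from deviations from this curve, and neighbouring times can deviate together. Interaction terms over all 26 libraries tested trend differences. Alternatives used DESeq2 1.42.0, limma 3.58.1 on the log2 values, other scalings, filters, minimums, periods and clocks, and each library left out in turn. On simulated data, the course A trend test recovered 71 of 100 genes changed by 1.5 (log2) and the course B test 65 of 100. At the same change the oscillation test recovered 47 of 100 in course B and 78 of 100 in course A. The course difference test recovered 62 of 100 and the trend difference test 49 of 100, so genes not called by these tests may still differ.

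The members and lists were chosen with earlier results of these data known. All 10 genes are named. From each companion list the text names up to 4 with the largest mean change among those called alike in both courses, up to 2 called unequally, and up to 2 with the largest called course difference, together with genes the text says were chosen after their values were seen. For likeness it names up to 3 top genes per member.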

Additional observations from a re-analysis of the deposited data

How the results depend on the processing

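The 8 falls called in course B stayed between 7 and 8 with any 1 library left out, and the 7 falls in course A between 5 and 7. With the 8 shared times alone, 3 genes fell in course A, where the fit has fewer libraries. With a minimum of 0.5 on the log2 scale, 1 gene was called higher in course B in the course difference, 2 oscillated in course B, 3 oscillated in course A, and on the pan-neuronal scale 3 fell in course B and 5 in course A. The shares of all genes called at that minimum were not counted. Periods of 7 h or 9 h, quadratic time and the 8 shared times alone each left 0 oscillating genes in both courses, and leaving out 1 library gave 0 to 1 in each. DESeq2 called 2 oscillating genes in course B. On the pan-neuronal scale in course B, 1 to 2 genes rose and 0 to 1 fell with a library left out. The trend difference was called for 1 gene by DESeq2, by limma and with total counts only, and for 0 to 1 with a library left out. The signs that turned belonged to uncalled values. The course difference of bas-1 was -0.068 with harvest times, -0.21 with total counts only and -0.051 to 0.14 with a shared time left out. That of cho-1 was -0.26 with course A 3 h earlier, -0.051 with harvest times and -0.14 with total counts only, and that of eat-4 was -0.037 with total counts only. The course A trend of tph-1 was 0.22 at the 8 shared times and -0.55 to 0.021 with a library left out, and the course B trend of tbh-1 was -0.61 to 1.64. The cause of these changes was not tested. Depth limits tph-1 most, with 18 to 69 counts per library.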
